A study of Mus musculus with 6 samples.

Results

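The 9 genes described here encode transcription factors that specify skeletal muscle or act with the factors that do: *Myod1*, *Myog*, *Myf5*, *Myf6*, *Pax3*, *Pax7*, *Six4*, *Mef2a* and *Mef2c*. They were taken by symbol from a table of raw read counts for 55536 Ensembl genes, and all 9 were found in it. Counts came from bulk RNA-seq of basal keratinocytes, the progenitor layer of the epidermis, sorted as Epcam+ and α6 integrin+ cells from mouse dorsal skin at E16.5. TKO libraries (n = 3) came from Suv39h1 f/f, Suv39h2-/- and Setdb1 f/f embryos with K14CreERT2, a tamoxifen-dependent recombinase under a keratin promoter active in basal keratinocytes. Ctrl libraries (n = 3) came from embryos with the same alleles without K14CreERT2. Both groups thus lacked *Suv39h2*, and the groups differ by label in the recombinase that acts on the other floxed H3K9 methyltransferase genes. The supplement to the study lists 3 litters for bulk RNA-seq, all of them described as mosaic, with tamoxifen given at E9.5, E10.5 and E11.5. These litters are listed with 1, 2 and 1 Ctrl embryos and 2, 1 and 2 TKO embryos. Which embryos went into which library is not given in the sources used here. By the sex letters of the libraries, 1 female and 2 males stood in each group, the females being Ctrl replicate 1 and TKO replicate 2. The question addressed was whether muscle genes were higher in TKO with or without their regulators.

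Skeletal muscle arises from progenitors that express the paired-box factors Pax3 and Pax7. These give rise to myoblasts, in which the basic helix-loop-helix factors MyoD (*Myod1*), Myf5, Myf6 and myogenin (*Myog*), together called myogenic regulatory factors, bind the E-box as dimers with E proteins and activate muscle genes. Six4 and its relatives bind the MEF3 element and act upstream of and beside them, and Mef2 proteins bind A/T-rich elements in the promoters of many contractile genes. Both of the latter families are also used in other tissues, whereas the myogenic regulatory factors are largely restricted to the muscle lineage and are not known as genes of normal epidermis.

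Total counts ranged from 102159175 to 136515436 per library. Values are given in CPM, read counts scaled to a common library size by TMM normalization. The detection floor was set at 3 counts, or 0.0232 to 0.0303 CPM. Floors and intervals cover counting error only. Nothing in the labels says how far the 3 libraries of a group are independent beyond being separate samples, so p-values measure the spread between these samples. The sorted cells expressed the defining basal markers strongly, with *Krt5* at a mean of 9430 CPM, and suprabasal *Krt1* at 8454 CPM. Of the targeted genes, *Setdb1* was at 125.5, 117.9 and 121.0 CPM in Ctrl replicates 1, 2 and 3 and at 95.3, 62.3 and 74.8 CPM in TKO replicates 1, 2 and 3. *Suv39h1* and *Suv39h2* had log2 fold changes of -0.10 and 0.11. *Suv39h1* was at 0.903, 0.823 and 1.07 times the Ctrl mean in TKO replicates 1, 2 and 3. It was thus slightly below every Ctrl library in TKO replicates 1 and 2 and above them in TKO replicate 3. Reads were summed over each whole gene, floxed exons included.

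Promoter sequences are shown for *Myog* and for 3 muscle genes whose levels are set against it below, a choice made after their values were seen. Each line gives the 250 bases before the RefSeq start, 5′ to 3′ on the strand of the gene, in build GRCm38.p6. Capitals mark the E-box (CANNTG), the MEF3 element (TCAGGTT) and the MEF2 element, searched on both strands. The windows are chr1:134289754-134290003 (+) for *Myog*, chr11:67078050-67078299 (+) for *Myh3*, chr2:76982548-76982797 (-) for *Ttn* and chr8:123894776-123895025 (-) for *Acta1*.
Myog: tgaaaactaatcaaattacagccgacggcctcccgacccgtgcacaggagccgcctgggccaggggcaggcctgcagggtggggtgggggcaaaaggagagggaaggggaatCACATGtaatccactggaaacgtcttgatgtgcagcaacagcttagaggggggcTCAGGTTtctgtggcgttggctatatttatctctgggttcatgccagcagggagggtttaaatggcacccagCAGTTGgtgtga
Myh3: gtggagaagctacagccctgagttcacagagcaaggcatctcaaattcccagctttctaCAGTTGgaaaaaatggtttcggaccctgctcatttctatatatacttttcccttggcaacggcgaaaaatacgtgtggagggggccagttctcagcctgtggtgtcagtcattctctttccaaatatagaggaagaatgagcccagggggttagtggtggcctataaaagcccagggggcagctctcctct
Ttn: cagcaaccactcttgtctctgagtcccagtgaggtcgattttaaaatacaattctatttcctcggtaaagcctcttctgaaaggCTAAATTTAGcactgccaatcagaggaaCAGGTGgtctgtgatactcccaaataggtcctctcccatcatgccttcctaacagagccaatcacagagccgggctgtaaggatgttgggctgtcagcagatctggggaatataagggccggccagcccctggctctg
Acta1: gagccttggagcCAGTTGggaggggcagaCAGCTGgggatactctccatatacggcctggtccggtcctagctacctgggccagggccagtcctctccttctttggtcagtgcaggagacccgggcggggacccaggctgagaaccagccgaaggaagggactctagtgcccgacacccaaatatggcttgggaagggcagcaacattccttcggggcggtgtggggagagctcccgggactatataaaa

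The *Myog* window held 2 E-boxes, at bases -138 to -133 and -12 to -7 from the start, and a MEF3 match at -84 to -78. *Acta1* held 2 E-boxes, *Myh3* 1, and *Ttn* 1 E-box and 1 MEF2 match. An E-box is a common string, found in 66.2% of the 32851 windows in the table, while MEF3 was found in 3.49% and MEF2 in 1.69%. RefSeq windows were matched for 6 of the 9 factors, and their first windows held an E-box in 2 and a MEF3 match in 3. MEF2 was searched first in a strict form, which gave no match in any of these 6 windows. A wider form, with the first base C or T and the last base free, was tried after that result was seen and matched 2 of the 6, *Myog* and *Mef2c*, against 7.03% of all windows. Among 76 muscle genes listed as targets of the factors, 56 had a window, of which 48 held an E-box, 1 a MEF3 match, 11 the strict and 17 the wider MEF2 form. These are matches of letters and not measured binding sites.

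The level of each factor was compared per kilobase of its annotated exons (GENCODE vM39), since the genes differ in length. *Mef2a* stood far above the others with a mean of 23.7 CPM per kilobase over the 6 libraries (18.9 to 28.4), and its range did not touch that of any other factor. *Mef2c* (0.589), *Myog* (0.509) and *Six4* (0.239) followed, with ranges that overlapped. *Myod1* (0.0899), *Pax3* (0.0596), *Myf5* (0.0300), *Pax7* (0.0220) and *Myf6* (0.00538) made up the lower end, again with overlapping ranges between neighbours. The order therefore separates *Mef2a* from the rest and leaves the neighbours below it within each other's spread.

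**Figure D1:**
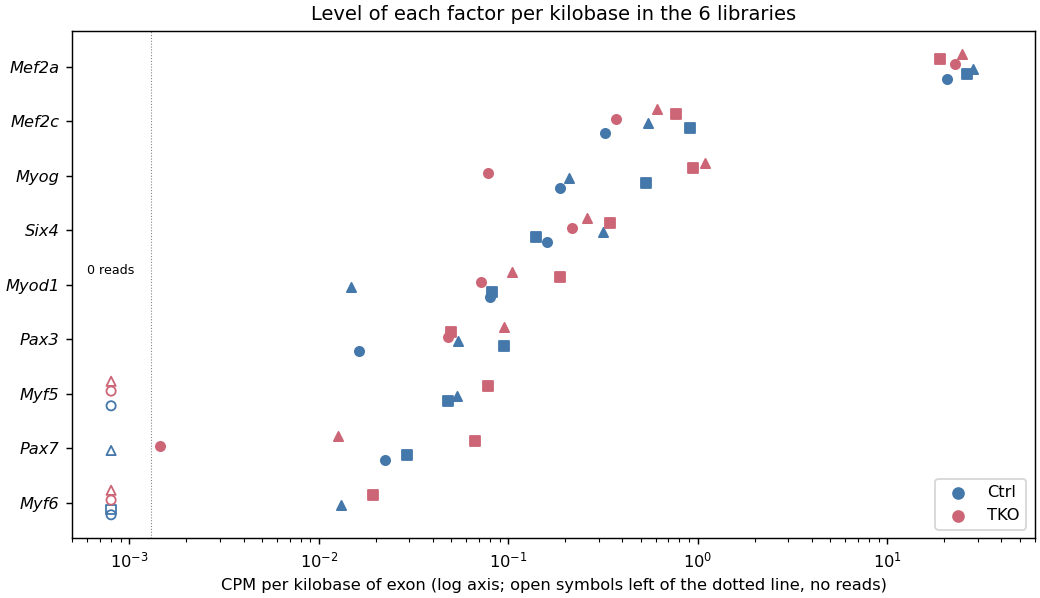
Level of each factor in CPM per kilobase of exon on a log axis, 1 symbol per library, with circles, squares and triangles for replicates 1, 2 and 3 and open symbols at the left for libraries without a read. *Mef2a* lies between 18.9 and 28.4, while *Myf6* has reads in 1 Ctrl and 1 TKO library.

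None of the 8 factors that passed the low-count filter was called in TKO against Ctrl, where a call needed an adjusted p under 0.05 in edgeR's quasi-likelihood test and an absolute log2 fold change above 1. That rule called 0.131% of the 20622 genes tested, 27 higher and 0 lower. At an unadjusted p under 0.05, 0 of the 8 were higher and 0 lower, against 4.06% and 2.02% of all genes, and DESeq2 called 0 of them, against 0.936% of all genes called higher. In none of the 8 were the groups free of overlap, a state found for 6.35% of all genes with TKO higher and 5.11% with TKO lower. Their log2 fold changes were above 0 in 5 and below 0 in 3, with a median of 0.32 beside 0.01 over all genes tested. The adjusted p of each of the 8 was 1.0 in edgeR's test.

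Myogenin, which drives the terminal differentiation of myoblasts, is encoded by *Myog* (chr1:134217707-134220287 in GRCm39, + strand, 1516 bases of exon). It was at 0.283, 0.812 and 0.315 CPM in Ctrl replicates 1, 2 and 3, from 28, 105 and 34 reads. In TKO replicates 1, 2 and 3 it was at 0.119, 1.44 and 1.66 CPM, from 14, 159 and 202 reads. TKO replicates 2 and 3 thus lay above every Ctrl library and TKO replicate 1 below every one of them. Exact Poisson intervals (95%) placed TKO replicate 1 at 0.065 to 0.2 CPM and TKO replicate 3 at 1.44 to 1.91 CPM, intervals that did not overlap. Those of Ctrl replicates 1 (0.188 to 0.408 CPM) and 2 (0.664 to 0.983 CPM) did not overlap either, so libraries within both groups differed by more than counting error. The log2 fold change was 1.18 (SE 0.816, unadjusted p = 0.179 in edgeR's test). Without TKO replicate 1 it was 1.70, with an unadjusted p of 0.0140 and no call after adjustment.

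MyoD, a determination factor able to convert other cell types to muscle, is encoded by *Myod1* (chr7:46025870-46028526, + strand). Its levels were 0.151, 0.155 and 0.0278 CPM in Ctrl replicates 1, 2 and 3 and 0.136, 0.353 and 0.197 CPM in TKO replicates 1, 2 and 3. The groups overlapped through TKO replicate 1, which lay below 2 of the Ctrl libraries. Its log2 fold change of 1.03 (SE 0.884) had an unadjusted p of 0.273 in edgeR's test. *Myod1* had at most 39 reads in any library.

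The neighbouring genes *Myf5* (chr10:107318769-107321995, - strand) and *Myf6* (chr10:107328712-107330656, - strand) encode the other determination factor and a factor of late muscle differentiation. *Myf5* had 0, 13 and 12 reads in Ctrl replicates 1, 2 and 3 and 0, 18 and 0 reads in TKO replicates 1, 2 and 3. Its log2 fold change of -0.40 had an SE of 1.72, which exceeds the change itself. *Myf6* had 2 reads in Ctrl replicate 3, 3 reads in TKO replicate 2 and none in the other libraries, at or under the detection floor everywhere, and was left out by the filter.

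Summed over these 4 myogenic regulatory factors, the libraries held 707 reads in all. The sum was 0.434, 1.07 and 0.473 CPM in Ctrl replicates 1, 2 and 3 and 0.255, 1.98 and 1.86 CPM in TKO replicates 1, 2 and 3. The lowest and the 2 highest of the 6 libraries were all TKO. The Ctrl mean of 0.658 ± 0.355 CPM and the TKO mean of 1.37 ± 0.963 CPM (SD, n = 3) differed by 0.707 CPM (two-sided exact permutation test over 20 arrangements, p = 0.4, where 0.1 is the smallest p that 3 against 3 allows). The difference rested on single libraries, at 1.26 CPM without TKO replicate 1, 0.398 CPM without TKO replicate 2 and 0.460 CPM without TKO replicate 3.

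Of the progenitor factors, *Pax3* (chr1:78077904-78173771, - strand), which acts in somites and migrating muscle precursors and also in neural crest, was at 0.101, 0.588 and 0.334 CPM in Ctrl replicates 1, 2 and 3 and 0.297, 0.308 and 0.584 CPM in TKO replicates 1, 2 and 3. Every TKO value fell inside the Ctrl range, and the log2 fold change was 0.21 (SE 0.686). *Pax7* (chr4:139464373-139560839, - strand), which marks muscle satellite cells, had 13, 22 and 0 reads in Ctrl replicates 1, 2 and 3 and 1, 43 and 9 reads in TKO replicates 1, 2 and 3. Most of its TKO reads came from replicate 2, and its log2 fold change of 0.63 (SE 1.42) became -1.27 without that library.

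*Six4* (chr12:73146383-73160230, - strand), a homeodomain factor upstream of the myogenic regulatory factors, was at 1.74, 1.52 and 3.41 CPM in Ctrl replicates 1, 2 and 3 and 2.35, 3.75 and 2.82 CPM in TKO replicates 1, 2 and 3. Only TKO replicate 2 exceeded Ctrl replicate 3, and the log2 fold change was 0.42 (SE 0.387, unadjusted p = 0.304 in edgeR's test).

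*Mef2a* (chr7:66880911-67022606, - strand), a broadly expressed MADS-box factor, was the one factor of the 9 at an abundant level. It was at 320, 409 and 440 CPM in Ctrl replicates 1, 2 and 3 and 354, 293 and 385 CPM in TKO replicates 1, 2 and 3. The TKO mean of 344 ± 46.8 CPM was below the Ctrl mean of 390 ± 62.1 CPM (SD, n = 3), a log2 fold change of -0.18 (SE 0.169) within the spread of the replicates. *Mef2c* (chr13:83652064-83815555, + strand), which is also used in heart, endothelium and neurons, was at 5.54, 15.6 and 9.35 CPM in Ctrl replicates 1, 2 and 3 and 6.36, 13.2 and 10.4 CPM in TKO replicates 1, 2 and 3. Its means of 10.2 and 9.99 CPM gave a log2 fold change of -0.03 (SE 0.374). Genes on the opposite strand overlap *Myog*, *Six4*, *Mef2a* and *Mef2c*, and whether strand was used in counting is not given in the sources used here.

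**Figure D2:**
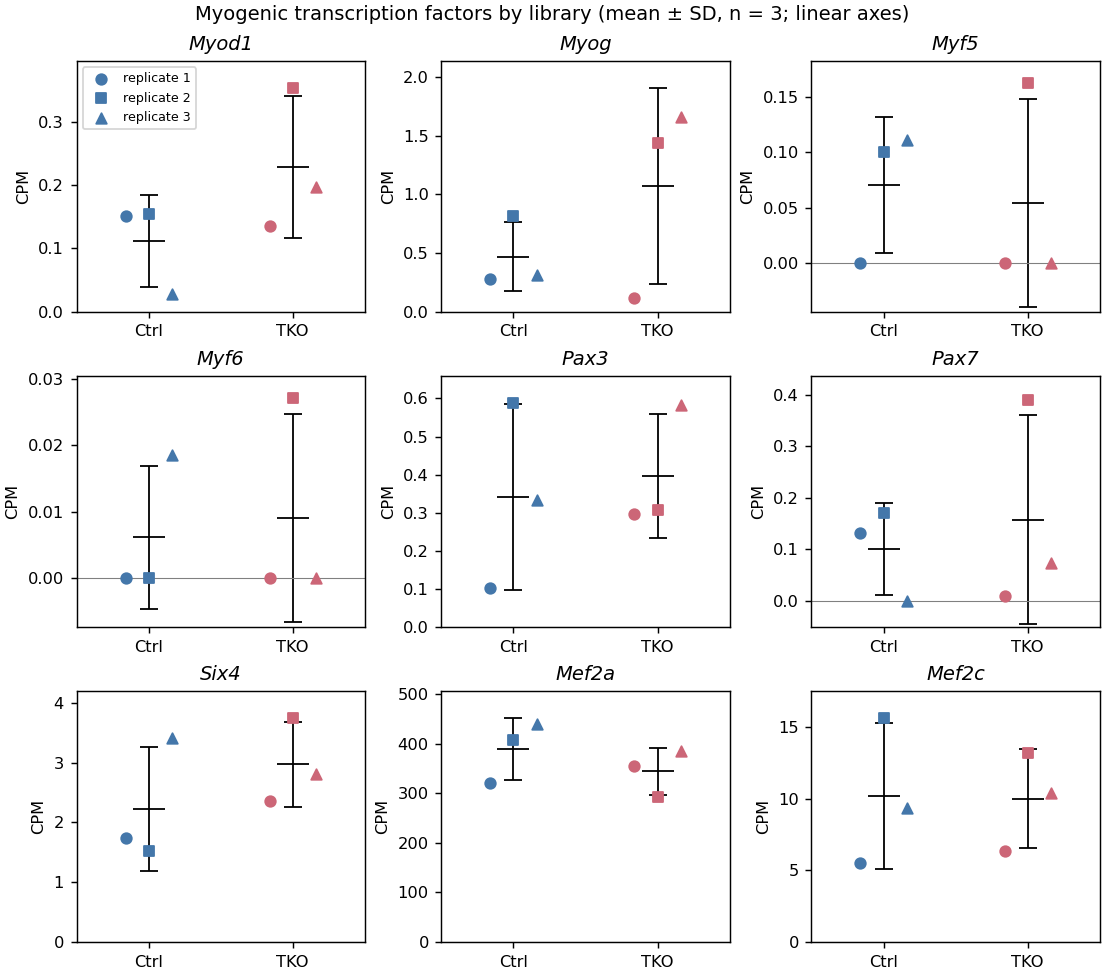
CPM of the 9 factors in Ctrl (blue) and TKO (red), 1 symbol per library by replicate number, with the mean and SD (n = 3) in black on linear axes. In *Myog*, TKO replicate 1 at 0.119 CPM lies under all Ctrl libraries and TKO replicates 2 and 3 lie above them.

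The likeness of other genes to the factors was measured as the root mean square difference of log2 CPM, centred on its mean, over the 6 libraries and 20621 genes. Nearest to *Myog* were *Mexis* (0.285), *Nlrc4* (0.378), *Asb10* (0.402), *Angptl7* (0.478) and *P2ry13* (0.485). For *Myod1* they were *Casp4*, *Oasl2*, *Syngr4*, *Mc1r* and *Gm21284* (0.258 to 0.293), and for *Myf5* they were *Plin5*, *Dio3os*, *Cstdc2*, *Trim30d* and *Adamtsl3* (0.276 to 0.516). All 15 had a mean below 1 CPM, and none of them is among the muscle genes listed here.

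Other regulators of myogenesis were counted in the same way. Of 24 listed, 18 were tested, 0 were called, beside 0.131% of all genes, and 0 were higher or lower at an unadjusted p under 0.05, beside 4.06% and 2.02% of all genes. For so few genes, counts of 0 are close to these shares. Their log2 fold changes were above 0 in 12, with a median of 0.19. The most abundant were the SRF cofactors *Mrtfb* and *Mrtfa*, *Mef2d* and *Srf* itself, with log2 fold changes of 0.03, 0.12, -0.05 and 0.24. The highest values belonged to *Vgll2*, a cofactor of TEAD proteins (1.65, SE 1.30), the fusion gene *Mymk* (1.60, SE 1.36) and the methyltransferase gene *Smyd1* (0.97, SE 0.863), all under 0.5 CPM. *Vgll2* had 5, 5 and 10 reads and *Smyd1* 7, 19 and 8 reads in Ctrl replicates 1, 2 and 3. Each of these genes passed the filter at least in part through TKO, so their folds are a description only. *Mymk* was at 0.0101, 0.124 and 0.102 CPM in Ctrl replicates 1, 2 and 3 and at 0, 0.407 and 0.321 CPM in TKO replicates 1, 2 and 3. *Vgll2* and *Mymk* thus had no read in TKO replicate 1 and their highest values in TKO replicates 2 and 3. Log2 fold changes below 0 included those of *Eya1* (-0.32) and *Eya2* (-0.17), which encode cofactors of Six4 and its relatives.

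A further list held E proteins, the dimer partners of the myogenic regulatory factors, and inhibitors of these dimers or of Mef2 proteins. All 14 listed genes were tested, 0 were called, where 0.131% of all genes were, and the median log2 fold change was -0.08. The E protein gene *Tcf12* was the most abundant, at 157, 202 and 190 CPM in Ctrl replicates 1, 2 and 3 and 191, 193 and 206 CPM in TKO replicates 1, 2 and 3. The next 2 genes were chosen after their values were seen. *Id2*, which encodes an inhibitor that sequesters E proteins, was at 13.4, 13.4 and 13.1 CPM in Ctrl and 6.86, 7.34 and 12.7 CPM in TKO replicates 1, 2 and 3, with a log2 fold change of -0.57 (unadjusted p = 0.0430, adjusted p = 0.798 in edgeR's test). *Hdac4*, which encodes a repressor of Mef2 proteins, had a log2 fold change of 0.39 (unadjusted p = 0.0526), with groups that did not overlap, as in 6.35% of all genes with TKO higher.

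The genes that these factors are known to activate were examined in the same libraries. Of 76 listed muscle genes 61 were tested, and 52 log2 fold changes were above 0 and 9 below, with a median of 0.68. At an unadjusted p under 0.05, 16 were higher and 1 lower, beside 4.06% and 2.02% of all genes. In 18 every TKO library exceeded every Ctrl library and in 1 every TKO library lay below, beside 6.35% and 5.11% of all genes. In edgeR's test 1 was called (0.131% of all genes), and DESeq2 called 8 higher (0.936% of all genes). Those 8 were *Myh3*, *Myh8*, *Acta1*, *Actc1*, *Actn2*, *Ttn*, *Jph2* and *Fbp2*. The filter can keep a gene through the group in which it is high, so these counts and this median are over genes that it selected in part by direction. Without the filter the median over all 76 was 0.63, and over the 39 with at least 10 counts in every library it was 0.58. Contractile genes had a median log2 fold change of 0.88 over 33 tested, genes of excitation and the synapse 0.68 over 17, and metabolic genes 0.34 over 11.

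The gene called in edgeR's test was *Myh3*, which encodes the embryonic myosin heavy chain. It was at 0.656, 0.758 and 0.501 CPM in Ctrl replicates 1, 2 and 3 and at 3.87, 3.46 and 4.36 CPM in TKO replicates 1, 2 and 3. All 3 TKO libraries, replicate 1 included, stood well clear of Ctrl, with a log2 fold change of 2.61 (SE 0.336, adjusted p = 0.0211 in edgeR's test). No muscle gene was called with sex as a factor, or when any one of Ctrl replicates 1, 2 and 3 and TKO replicates 1 and 2 was left out. *Ttn*, which encodes the giant sarcomeric spring titin, was at 1.33, 7.40 and 3.90 CPM in Ctrl and 26.1, 22.1 and 20.9 CPM in TKO. Its log2 fold change was 2.45 (adjusted p = 0.181 in edgeR's test, called by DESeq2). *Myh7*, a slow myosin heavy chain gene, had a log2 fold change of 2.52 (SE 1.18, adjusted p = 0.861) at under 0.4 CPM, and it passed the filter through TKO, with 0, 8 and 4 reads in Ctrl.

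The level of the factors and that of these genes did not have the same order over the libraries. TKO replicate 1 had the lowest *Myog* of the 6 libraries and the highest *Ttn*, and also the highest *Myh8*, the perinatal myosin heavy chain gene, which was chosen after its values were seen. *Myh8* was at 0.0807, 0.193 and 0.241 CPM in Ctrl replicates 1, 2 and 3 and 1.17, 0.860 and 0.732 CPM in TKO replicates 1, 2 and 3. The α-actin genes did not follow this order. *Actc1*, the cardiac α-actin gene that fetal skeletal muscle also expresses, was at 0.787, 2.26 and 1.88 CPM in Ctrl and 1.90, 6.14 and 9.0 CPM in TKO replicates 1, 2 and 3. *Acta1*, the skeletal α-actin gene, also chosen after its values were seen, was at 0.353, 0.573 and 0.964 CPM in Ctrl and 0.960, 3.28 and 3.97 CPM in TKO. In TKO replicate 1 both lay inside the Ctrl range, and in the TKO libraries with high *Myog* both lay above it.

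**Figure D3:**
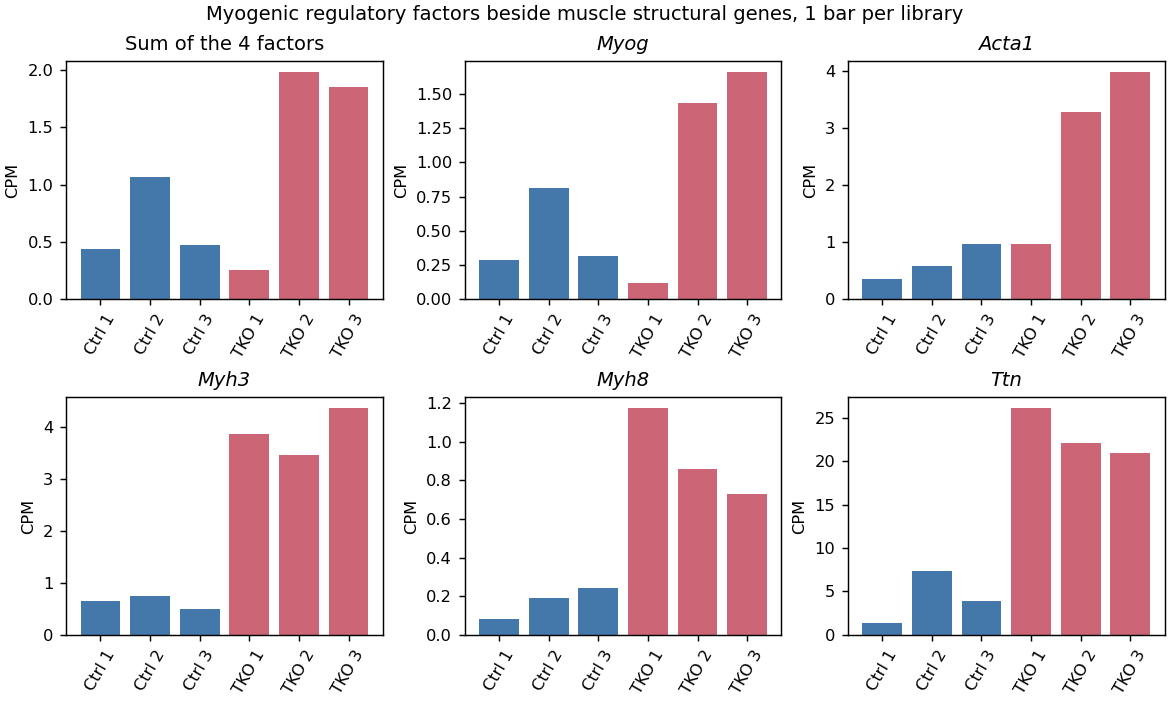
CPM by library of the summed 4 myogenic regulatory factors, *Myog* and 4 muscle structural genes, with Ctrl in blue and TKO in red and bars from 0. TKO replicate 1 has the lowest sum of factors (0.255 CPM) and *Acta1* within the Ctrl range, but 3.87 CPM of *Myh3* and 26.1 CPM of *Ttn*.

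Counted over the list, 26 of the 61 muscle genes (42.6%) were above every Ctrl library in TKO replicate 1, where 25.0% of all genes tested were. The count was 41 of 61 (67.2%) in TKO replicate 2 and again 41 of 61 in TKO replicate 3, beside 26.9% and 29.2% of all genes. Of the 8 factors tested, 0, 5 and 2 were above every Ctrl library in TKO replicates 1, 2 and 3. For the 18 other regulators the counts were 1, 7 and 11.

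Among the remaining contractile genes, *Mybpc1*, a myosin-binding protein gene, was the most abundant, at 45.3, 35.3 and 47.0 CPM in Ctrl and 77.7, 67.0 and 42.2 CPM in TKO replicates 1, 2 and 3. Without it, the summed level of the other 41 was 19.1, 27.0 and 24.1 CPM in Ctrl and 54.4, 62.8 and 69.6 CPM in TKO. *Ttn* was a large part of this sum, and without both genes, a choice made after seeing the data, the sum was 17.8, 19.6 and 20.2 CPM in Ctrl and 28.3, 40.7 and 48.7 CPM in TKO. The groups did not overlap in either sum. *Myom3* had a log2 fold change of 0.10, and the lowest were *Tnni2* (-0.48), *Mypn* (-0.24) and *Mybpc2* (-0.04).

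Among genes of excitation, the calcium channel gene *Cacna1s* (3.26, SE 1.20), the junctophilin gene *Jph2* (2.99, SE 0.700) and the calsequestrin gene *Casq2* (2.18, SE 0.895) had the highest log2 fold changes. *Jph2* was at 0.0605, 0.224 and 0.120 CPM in Ctrl and 0.442, 1.93 and 0.912 CPM in TKO replicates 1, 2 and 3. It had an adjusted p of 0.228 in edgeR's test and was called by DESeq2. *Cacna1s* had 13, 0 and 1 reads and *Casq2* 22, 8 and 2 reads in Ctrl replicates 1, 2 and 3, so that both passed the filter through TKO and their folds are a description only. The most abundant, *Dmd*, *Srl* and *Ryr1*, had log2 fold changes of 0.29, 0.35 and 0.27, and the lowest were *Scn4a* (-0.95), *Jph1* (-0.59) and *Trdn* (-0.18).

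Metabolic genes were mixed. *Fbp2*, the muscle fructose bisphosphatase gene (3.60, SE 0.846), *Mb*, which encodes myoglobin (2.13, SE 0.688), and *Cox6a2* (1.45, SE 0.859) had the highest log2 fold changes. *Fbp2* was at 4.17, 19 and 13.4 times its Ctrl mean in TKO replicates 1, 2 and 3. It was near the floor in Ctrl and passed the filter through TKO, so its fold is a description only. *Trim63* (-1.46), *Eno3* (-0.69) and *Fbxo32* (-0.12) had the lowest, and *Pgam2* was at 0.34. *Eno3*, the muscle enolase gene, was at 5.42, 3.71 and 3.39 CPM in Ctrl and 2.52, 2.5 and 2.74 CPM in TKO, with an unadjusted p of 0.0404 and an adjusted p of 0.789 in edgeR's test.

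**Figure D4:**
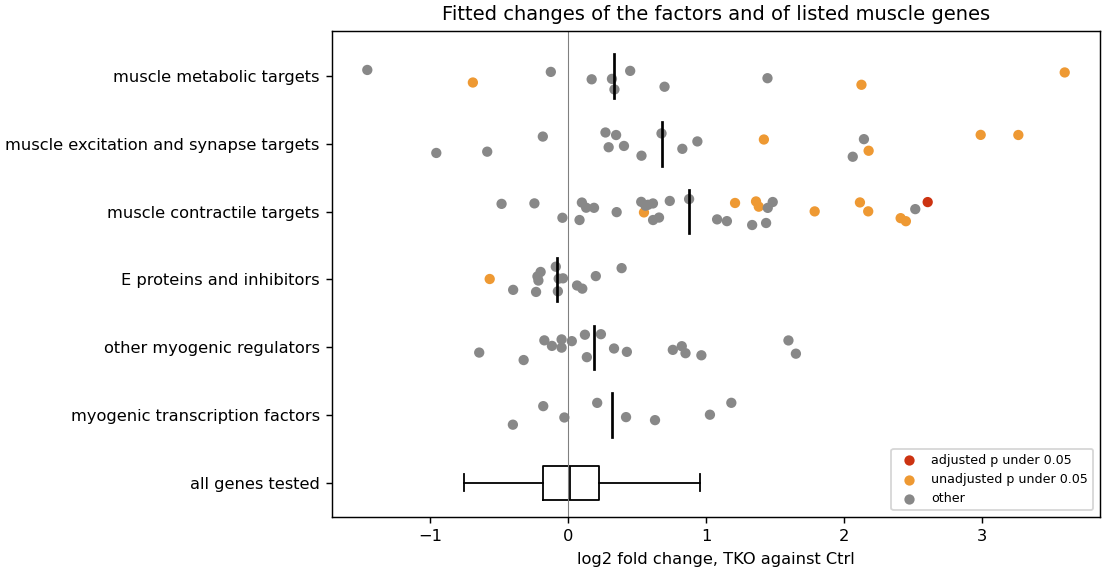
Log2 fold changes of TKO against Ctrl for the 8 factors tested and the listed regulators and muscle genes, 1 point per gene, with black bars at list medians and a box for all genes tested (quartiles, whiskers at the 5th and 95th percentiles). The factors have a median of 0.32 and contractile genes one of 0.88, with *Myh3* the only point in red.

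Markers of other cells varied between the same libraries. In bulk samples fewer cells of a type and less RNA per cell cannot be told apart. All 8 endothelial markers were tested, and 0, 8 and 5 of them were above every Ctrl library in TKO replicates 1, 2 and 3. Of all genes tested, 25.0%, 26.9% and 29.2% were. Below every Ctrl library were 5, 0 and 1 of the 8, beside 25.0%, 23.4% and 27.2% of all genes. Their summed level was 33.5, 32.4 and 45.6 CPM in Ctrl and 31.1, 75.8 and 60.5 CPM in TKO, with *Cdh5* the most abundant. TKO replicates 2 and 3 were thus high both in endothelial markers and in the myogenic regulatory factors, and TKO replicate 1 was the lowest library in both.

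Of 8 immune markers 6 were tested, with 0, 6 and 0 above every Ctrl library in TKO replicates 1, 2 and 3. Beside these stood 25.0%, 26.9% and 29.2% of all genes tested. Below every Ctrl library were 4, 0 and 0 of the 6, beside 25.0%, 23.4% and 27.2% of all genes. They summed to 25.3, 40.6 and 16.4 CPM in Ctrl and 9.87, 63.9 and 18.9 CPM in TKO, led by *Csf1r*. Myoblast markers (8 of 9 tested) were above every Ctrl library in 0, 3 and 6 cases, beside the same 25.0%, 26.9% and 29.2% of all genes. Their sum of 407, 392 and 498 CPM in Ctrl and 403, 448 and 617 CPM in TKO was mostly *Dag1*, which took 81.2% and is not restricted to muscle. Without *Dag1* the sum was 69.9, 78.3 and 98.8 CPM in Ctrl and 74.4, 81.6 and 116 CPM in TKO replicates 1, 2 and 3. It was lowest in Ctrl replicate 1, and TKO replicates 1 and 2 lay inside the Ctrl range, unlike the sum of the myogenic regulatory factors. The median log2 fold change of the 8 was 0.16, from -0.21 to 1.17, with 5 above 0 and 3 below, and in TKO replicate 1 there were 4 below every Ctrl library, where 25.0% of all genes were.

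Fibroblast markers (8 of 8 tested) summed to 1709, 4322 and 3561 CPM in Ctrl and 2828, 2938 and 3245 CPM in TKO, led by *Col1a1*, and were lowest in Ctrl replicate 1, where *Mef2c* was lowest too. Smooth muscle and pericyte markers (6 of 7 tested, led by *Cspg4*) summed to 68.8, 71.5 and 95.4 CPM in Ctrl and 65.3, 78.6 and 112 CPM in TKO. Melanocyte and neural crest markers (11 of 12 tested, led by *Erbb3*) summed to 284, 216 and 265 CPM in Ctrl and 211, 196 and 257 CPM in TKO, and *Foxd3* had no read in any library. *Erbb3*, which keratinocytes also express, took 90.3% of that sum, and without it the sum was 15.2, 20.4 and 25.8 CPM in Ctrl and 21.2, 27.8 and 27.7 CPM in TKO. Of the 11, 2, 7 and 6 were above every Ctrl library in TKO replicates 1, 2 and 3, beside 25.0%, 26.9% and 29.2% of all genes. Below every Ctrl library were 2, 2 and 0, beside 25.0%, 23.4% and 27.2% of all genes. *Mlana*, chosen after its values were seen, was at 0.141, 0.0155 and 0.167 CPM in Ctrl and 0.994, 1.53 and 0.304 CPM in TKO, with a log2 fold change of 3.13 (SE 0.856, adjusted p = 0.36 in edgeR's test, called by DESeq2). The 5 Merkel cell markers tested of 6 listed, led by *Krt8*, were below every Ctrl library in all 3 TKO libraries, as were 5.11% of all genes. Suprabasal markers (5 of 5 tested, led by *Krt1*) summed to 18080, 17710 and 19580 CPM in Ctrl and 15850, 11880 and 12420 CPM in TKO. *Krt1* and *Krt10*, the latter chosen after its values were seen, had log2 fold changes of -0.51 and -0.42 with groups that did not overlap (adjusted p = 0.658 and 0.762 in edgeR's test). Over the 5, 2 log2 fold changes were above 0 and 3 below, with a median of -0.05 and a highest value of 0.49. The other 3 did not pass an unadjusted p under 0.05. They were above the Ctrl mean in TKO replicates 1 and 2 and below it in TKO replicate 3. The part that any of these cells had in the values of the factors was not tested.

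**Figure D5:**
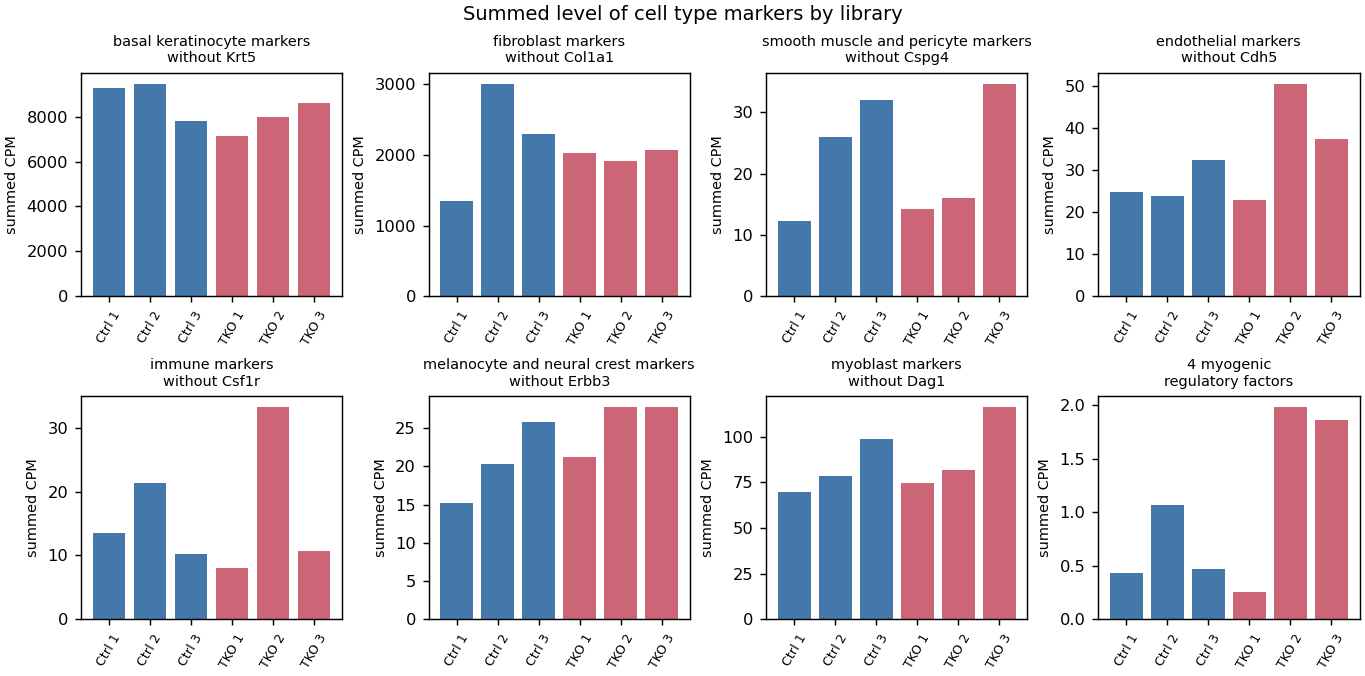
Summed CPM of marker lists by library, each without its most abundant gene, beside the sum of the 4 myogenic regulatory factors, with Ctrl in blue and TKO in red and bars from 0. TKO replicates 2 and 3 have the highest sums of endothelial markers and of the factors, and TKO replicate 1 the lowest of both.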

How the data were processed

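Bulk RNA-seq of 3 Ctrl and 3 TKO samples was used. After rRNA depletion and paired-end sequencing, reads were passed through fastp and STAR by the authors. They deposited unnormalized counts for each Ensembl gene, 1 column per library. The submitters' processing notes name GRCm38 and the methods GRCm39. The counting program, annotation and strand setting are not given in the sources used here. Of 55536 genes, 51477 matched GENCODE vM39 (GRCm39), which gave symbols, exon lengths and positions. Promoter windows came from RefSeq (GRCm38.p6), and no coordinates were converted.

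Genes were kept by filterByExpr (minimum count 10, minimum total count 15) in edgeR 4.0.16 (R 4.3.3), scaled by TMM and tested with glmQLFit (robust) and glmQLFTest, with Benjamini-Hochberg adjustment over 20622 genes. DESeq2 1.42.0, RLE size factors, other filters, the replicate block, sex as a factor, non-robust estimation and each library left out were alternatives. The tests were checked on simulated data. Likeness used a prior count of 2. The members and lists were chosen with earlier results of these data known. Genes named are all 9 factors, called listed genes, the 4 most abundant and the 3 highest and 3 lowest log2 fold changes of each list of muscle genes and other regulators, the 5 genes most like each tested myogenic regulatory factor, and the most abundant gene of other lists. One gene that this rule names is not reported here. The wider MEF2 search was added after the strict one gave no match in the windows of the factors. Figures were drawn with matplotlib 3.10.9.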

Additional observations from a re-analysis of the deposited data

How the results depend on the processing

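In all alternatives run, 0 factors were called. *Myog* kept a positive log2 fold change in 14 of 14 (with 1 library left out, from 0.72 without TKO replicate 3 to 1.84 without Ctrl replicate 2), with an unadjusted p under 0.05 in 2, without the low-count filter (0.0428) and without TKO replicate 1. *Myod1* (13 of 13), *Six4* and *Mef2a* (14 of 14 each) also kept their direction. With 1 library left out, *Myod1* (1.03) ran from 0.57, without Ctrl replicate 3 or TKO replicate 2, to 1.34. *Six4* (0.42) was 0.27, 0.21 and 0.22 without Ctrl replicates 1 and 2 and TKO replicate 2, and 0.87 without Ctrl replicate 3. *Mef2a* (-0.18) was -0.30 without Ctrl replicate 1, and -0.085 and -0.078 without Ctrl replicate 3 and TKO replicate 2. The others did not, and the cause was not tested. *Myf5* (-0.40) ranged from -6.06 to 0.18 with 1 library left out. The -6.06 was without TKO replicate 2, the only TKO library with a *Myf5* read, so that value compares Ctrl with no reads. *Myf5* was 0.07, 0.17 and 0.18 without Ctrl replicate 3, TKO replicate 1 and TKO replicate 3, and -2.35 with sex as a factor. *Pax3* (0.21) ranged from -0.22, without Ctrl replicate 1, to 0.86, and was -0.18 without TKO replicate 3. *Pax7* (0.63) was -0.14 with sex as a factor and ranged from -1.27, without TKO replicate 2, to 1.25. *Mef2c* (-0.03) was 0.015 with sex as a factor, ranged from -0.32 to 0.42, the latter without Ctrl replicate 2, and was 0.20 without TKO replicate 1.

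The number of genes called (27) was 235 without the filter, 9 with at least 10 counts in every library, 214 with DESeq2 on the same genes, 227 with its default workflow, and 7 to 81 with 1 library left out. Muscle genes higher at an unadjusted p under 0.05 (16) numbered 11 to 22. Those lower (1) numbered 0 with sex as a factor and 0 to 2 with 1 library left out. Over the factors, other regulators, and E proteins and inhibitors together, those higher (0) numbered 2 without the filter and 0 to 3 with 1 library left out, and those lower (1, *Id2*) numbered 2 without the filter, 0 with sex as a factor and 0 to 4 with 1 library left out. The fold of summed contractile genes (1.89) was 2.66 without *Mybpc1* and 2.04 without *Mybpc1* and *Ttn*, and the wider MEF2 search moved the matches from 0 to 2 factors and from 11 to 17 muscle genes. These were added after seeing the data.

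Same-numbered Ctrl and TKO libraries deviated together with correlations of 0.168, 0.087 and 0.127, and libraries with different numbers with -0.161 to 0.040. Each library thus correlated best with its own number, a hint from the data. The column names also number the Ctrl and TKO library of each replicate consecutively. The litters listed for bulk RNA-seq held both groups, but the labels tie no number to a litter and 1 of the 3 correlations was not above 0.1. The numbers were therefore not taken as pairs in the main fit, though pairing was not excluded. With the replicate block 45 genes were called, 0 muscle genes were lower and 1 gene of those 3 lists of regulators was higher at an unadjusted p under 0.05. In that fit *Myog* fell to 0.75 (unadjusted p = 0.31 in edgeR's test), *Myod1* was at 1.20 and *Mef2c* at 0.036. *Myod1*, *Myf5*, *Myf6* and *Pax7* rest on 0 to 43 reads per library.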
